A study of Mus musculus with 18 samples.

Results

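The genes described here encode 8 proteins that astrocytes secrete and that act on synapses, namely the thrombospondins (*Thbs1*, *Thbs2*, *Thbs3* and *Thbs4*), SPARC (*Sparc*), SPARC-like 1, also called hevin (*Sparcl1*), chordin-like 1 (*Chrdl1*) and spondin 1 (*Spon1*). They were taken by gene symbol, as 8 of the 51912 genes counted, and 8 of 8 were among the 24495 genes that reached 10 read pairs over the 18 libraries, although *Thbs4* did so with 28 read pairs in total. The libraries came from primary cortical astrocyte cultures hemizygous for the transgene Tg(Aldh1l1-EGFP/Rpl10a)JD130Htz, whose B6;FVB carrier line had been crossed with C57BL/6J mice, prepared from equal numbers of male and female pups at postnatal day 0. The transgene tags the ribosomal protein RPL10A with EGFP under the *Aldh1l1* promoter, which is active in astrocytes, and the control dishes carried it too. Cultures were grown for 14 days, replated, kept for 6 days, deprived of serum for 24 h and then kept for 24 h in serum-free medium with 50 mM ethanol or without ethanol. The question was which RNAs ethanol changed in the whole lysate (input) and among the RNAs pulled down with the tagged ribosomes (IP, by translating ribosome affinity purification, or TRAP). There were 6 IP control, 6 IP ethanol, 3 input control and 3 input ethanol libraries, and each input library was drawn from the lysate of a dish that also gave an IP library. The replicates were separate dishes, and whether they came from separate culture preparations was not given in the sources used here. The p-values therefore cover no spread wider than that between dishes, and the test of single genes also draws on a spread shared over genes.

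Astrocytes release proteins that make neurons form, strengthen or remove synapses. Thrombospondins are large trimeric (THBS1 and THBS2) or pentameric (THBS3 and THBS4) matrix proteins that induce excitatory synapses through the calcium channel subunit alpha2delta-1, while hevin links adhesion proteins across the synaptic cleft and SPARC opposes the synapse-forming action of hevin. Chordin-like 1 binds bone morphogenetic proteins (BMPs) and promotes the maturation of synapses by recruiting GluA2-containing AMPA receptors, and spondin 1 is a matrix protein that binds the amyloid precursor protein and receptors of apolipoprotein E and guides axons.

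In GRCm38 (GENCODE M21), *Thbs1* (ENSMUSG00000040152) lies at chr2:118111876-118127133 on the plus strand and *Thbs2* (ENSMUSG00000023885) at chr17:14665500-14694235 on the minus strand. *Thbs3* (ENSMUSG00000028047) lies at chr3:89215180-89226837 on the plus strand and *Thbs4* (ENSMUSG00000021702) at chr13:92751590-92794818 on the minus strand. *Sparc* (ENSMUSG00000018593) lies at chr11:55394500-55423183 and *Sparcl1* (ENSMUSG00000029309) at chr5:104079111-104113733, both on the minus strand. *Chrdl1* (ENSMUSG00000031283) lies at chrX:143285674-143394262 on the minus strand and *Spon1* (ENSMUSG00000038156) at chr7:113765998-114043370 on the plus strand. Strand was ignored in the counts used here, and read pairs that fell on 2 overlapping genes were left uncounted. *Thbs3* shares 318 exonic bases with *Mtx1* on the opposite strand, and *Thbs1* shares 208 with the noncoding RNA *Gm29233*, so that counting the annotated strand alone gave 113% of the unstranded read pairs for *Thbs3* and 108% for *Thbs1*. The same share was between 99.6% and 100% for the other members.

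Promoter windows from RefSeq (GRCm38.p6) matched 4 of the 8 genes (*Thbs2*, *Thbs3*, *Thbs4* and *Sparc*). The 250 bases before the start are printed for *Sparc*, the member with the most RNA, for *Thbs4*, the member with nearly none, and for *Thbs2*, the member that was lower in IP. The windows are chr11:55420081-55420330 for *Sparc*, chr13:92794819-92795068 for *Thbs4* and chr17:14694263-14694512 for *Thbs2*, and the minus strand is shown from 5′ to 3′ in each. For *Sparc*, GENCODE has a transcript that starts further upstream, so that the window lies inside the GENCODE gene. Capitals mark every match, on either strand, to the letters TATAAA for the TATA box, CCAAT for the box of that name, GGGCGG for the GC box, TGANTCA for AP-1, CATTCC for TEAD, CAGAC for SMAD or CACGTG for the E-box.
Sparc promoter: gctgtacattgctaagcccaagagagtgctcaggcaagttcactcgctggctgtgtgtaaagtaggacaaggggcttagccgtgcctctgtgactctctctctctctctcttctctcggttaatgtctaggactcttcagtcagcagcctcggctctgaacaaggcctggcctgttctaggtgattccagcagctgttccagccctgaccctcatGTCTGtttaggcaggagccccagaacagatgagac
Thbs2 promoter: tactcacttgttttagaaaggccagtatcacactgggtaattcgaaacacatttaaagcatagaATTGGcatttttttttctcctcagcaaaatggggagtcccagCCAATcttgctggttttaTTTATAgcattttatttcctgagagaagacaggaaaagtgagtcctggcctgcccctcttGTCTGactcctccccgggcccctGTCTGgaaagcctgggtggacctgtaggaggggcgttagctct
Thbs4 promoter: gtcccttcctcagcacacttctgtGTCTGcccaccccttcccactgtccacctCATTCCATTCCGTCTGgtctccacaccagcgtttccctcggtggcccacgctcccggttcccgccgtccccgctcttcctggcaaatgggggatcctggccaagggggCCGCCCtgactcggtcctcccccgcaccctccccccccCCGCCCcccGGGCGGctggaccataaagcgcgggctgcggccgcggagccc
The *Sparc* window held a single match, to the SMAD letters, beginning 35 bases before the start. The *Thbs2* window held CCAAT letters at 144 and 186 bases, the TATA letters on the opposite strand at 126 bases, and SMAD letters at 43 and 66 bases before the start. The *Thbs4* window held GC boxes at 42, 51 and 89 bases, TEAD letters at 192 and 197 bases, which overlap by 1 base, and SMAD letters at 186 and 226 bases. Among all 32851 RefSeq windows of this length, 42.2% held the SMAD letters, 33.8% CCAAT, 32.7% the GC box, 12.6% TEAD, 12.4% TATA, 6.75% AP-1 and 6.02% the E-box, so that the commonest of these letters occur in many promoters. The GC content was 54.0% in the *Sparc*, 46.8% in the *Thbs2* and 70.8% in the *Thbs4* window, against a median of 52.4% over all windows, and the ratio of observed to predicted CpG was 0.22, 0.22 and 0.68, against a median of 0.37. These matches are a description of the letters.

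Between 74239854 and 132810705 read pairs were counted on genes in each library, with a median of 84119135. Expression is given as CPM (counts of read pairs scaled to a common library size by TMM). Of 9 astrocyte markers, 8 were higher in IP than in input and 1 (*S100b*) was lower, and *Aldh1l1*, whose promoter drives the tag, was at 375 CPM in IP against 181 in input. Markers of other cells were present in input, with summed levels of 44.9 to 55.2 CPM for 6 microglia genes and 216 to 222 CPM for 5 fibroblast genes. In these bulk libraries, fewer cells of a type and less RNA per cell cannot be told apart. The libraries of a group were close to each other, with a median coefficient of variation between 2.55% (input control) and 4.07% (IP ethanol) over genes of at least 5 CPM. Even the most similar replicates, 5 and 6 of IP control, varied more than sampling alone would give (chi-square per degree of freedom 3.87), so no library was counted as a copy.

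The members spanned a wide range of levels. Per kb of exon, *Sparc* was the most abundant of the 8 in every group, followed by *Thbs1*, while *Thbs4* was nearly undetected. In IP control libraries the mean level per length was 1482 CPM per kb for *Sparc*, 261 for *Thbs1*, 26.8 for *Sparcl1*, 16.0 for *Thbs2*, 11.8 for *Thbs3*, 11.1 for *Spon1* and 6.67 for *Chrdl1*. Among the tested genes, *Sparc* stood at the 99.96th percentile per length in IP control and *Thbs1* at the 99.5th, while *Chrdl1* stood at the 74.2nd. *Sparc* alone took 0.554% of all read pairs on genes in IP without ethanol and 0.599% with it. In input control libraries *Thbs2* came after *Thbs1*, at 31.9 CPM per kb, ahead of *Sparcl1* at 16.6, and in IP this order was the opposite, with *Sparcl1* at 26.8 and *Thbs2* at 16.0. Neighbours in the order had ranges over libraries that did not overlap, except *Thbs3* and *Spon1* in IP ethanol, at 10.4 to 11.9 and 10.5 to 11.9 CPM per kb. This pair also depended on the length used, since per kb of the longest transcript *Spon1* (18.8) stood above *Thbs3* (14.1) in IP control. With that length the ranges of *Thbs2* (mean 19.0 in IP control) and *Spon1* overlapped in both IP groups. The plot of levels per length shows that *Sparc* and *Thbs1* stood apart from the other 5 members it shows.

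**Figure D1:**
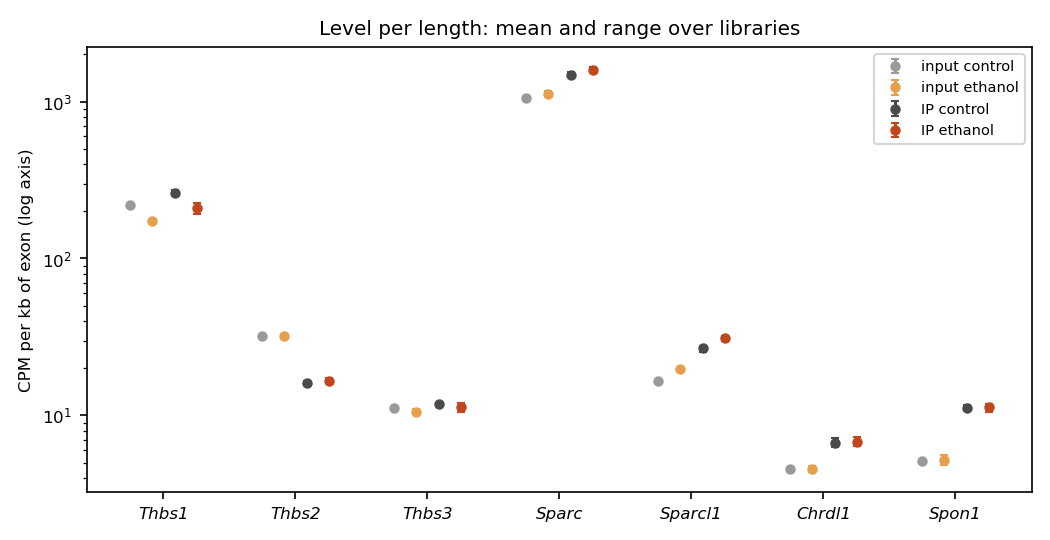
Level of 7 of the genes in CPM per kb of exon (log axis) in the 4 groups, as the mean (point) and the range over libraries (bar). *Sparc* lay between 1059 and 1654 CPM per kb and *Thbs1* between 167.1 and 274, while the other 5 lay between 4.35 and 32.6. *Thbs4*, at 0 in several libraries, is left out.

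With ethanol, *Thbs1* fell and *Sparcl1* and *Sparc* rose, in IP and in input alike, and the other 5 members did not pass the test in either fraction. Thus 3 of the 8 genes passed in IP, 2 higher and 1 lower, where 21.4% of all 24495 genes tested did (11.9% higher and 9.48% lower). In input the count was also 3 of 8, 2 higher and 1 lower, where 15.0% of all genes passed (7.21% higher and 7.78% lower). All genes include many with little RNA, while 7 of the 8 members averaged 1 CPM or more. When testing was restricted to that level, 5366 of 13278 genes passed in IP (2816 higher, 2550 lower). In input 3623 of 13619 did (1708 higher, 1915 lower). These shares are larger than those over all genes, which the lists below are also set against. Whether the members differ from genes of similar level was not tested. For *Thbs1*, *Sparc* and *Sparcl1* the ranges of control and ethanol libraries were apart in both fractions, against 9.96% of all genes in IP and 27.1% in input. The median log2 fold change of the 8 genes was 0.05 in IP and 0.00 in input, against 0.01 and 0.00 over all genes tested.

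*Thbs1*, the thrombospondin released by young astrocytes and platelets and known to activate latent TGF-beta, was the most abundant thrombospondin. In IP control libraries it ranged from 1537 to 1665 CPM with a median of 1582, and in IP ethanol libraries from 1168 to 1367 with a median of 1271. Every ethanol library was below every control library. The log2 fold change was -0.31 (SE 0.03; edgeR's quasi-likelihood test, adjusted p = 1.36e-10), so that *Thbs1* fell by 19.5%. In input, the control libraries were at 1325, 1325 and 1326 CPM and the ethanol libraries at 1015, 1063 and 1061 CPM. Here too the groups did not overlap, and *Thbs1* fell by 21.3% (log2 fold change -0.34, SE 0.02; edgeR's quasi-likelihood test, adjusted p = 9.18e-54). With 3 libraries a group, so small a p-value leans on the spread shared over genes. In IP, replicates 1 to 3 alone gave a log2 fold change of -0.37 and replicates 4 to 6 alone -0.27.

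*Thbs2*, a thrombospondin made by astrocytes and fibroblasts, did not pass the test. In IP it ranged from 110 to 117 CPM in control and from 114 to 121 CPM in ethanol libraries, with medians of 111 and 115, and the groups overlapped. The log2 fold change was 0.06 (95% interval 0.02 to 0.11; edgeR's quasi-likelihood test, adjusted p = 0.0544). This value sat at the threshold, and the adjusted p was 0.0466 without IP ethanol replicate 1, 0.0398 without IP ethanol replicate 5 and 0.0466 with DESeq2. In input *Thbs2* was at 225, 222 and 223 CPM in control and 224, 225 and 228 CPM in ethanol libraries, with a log2 fold change of 0.01 (interval -0.03 to 0.06).

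*Thbs3*, a pentameric thrombospondin, was at 56.3 to 57.3 CPM in IP control and 50.4 to 57.5 CPM in IP ethanol libraries, with a log2 fold change of -0.05 (interval -0.11 to 0.01; edgeR's quasi-likelihood test, adjusted p = 0.239). In input the control libraries were at 54.6, 55.0 and 52.0 CPM and the ethanol libraries at 50.4, 49.6 and 52.7 CPM. The groups overlapped through control replicate 6 and ethanol replicate 6, and the log2 fold change was -0.09 (edgeR's quasi-likelihood test, adjusted p = 0.051). The adjusted p was 0.0229 without input control replicate 6, 0.0147 without input ethanol replicate 6 and 0.00865 with the pairs of the annotated strand, which also hold the pairs shared with *Mtx1*.

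*Thbs4*, the other pentameric thrombospondin, had 4, 6 and 1 read pairs in the input control and 0, 3 and 1 in the input ethanol libraries. In IP it had 0, 1, 0, 0, 3 and 0 pairs in control and 4, 0, 1, 3, 1 and 0 in ethanol libraries. At this depth no difference was detectable, since a count of 0 allows up to 3 pairs, and no fold is given. Summed over the 4 thrombospondins, the level was 1708 to 1833 CPM in IP control and 1343 to 1532 CPM in IP ethanol libraries, with no overlap. The difference was -0.28 on the log2 scale (exact two-sided permutation test, p = 0.00216, the smallest that 6 against 6 libraries allow, and 0.00866 after adjustment over 4 such tests). In input the sum was 1601 to 1605 CPM in control and 1289 to 1342 CPM in ethanol libraries (difference -0.28; exact permutation p = 0.1, the smallest that 3 against 3 libraries allow). Per length, *Thbs1* made up 90.0% to 90.8% of the thrombospondin level in IP control and 87.0% to 89.4% in IP ethanol libraries. The fall of the sum thus repeats that of *Thbs1* and is no separate result for the other thrombospondins.

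**Figure D2:**
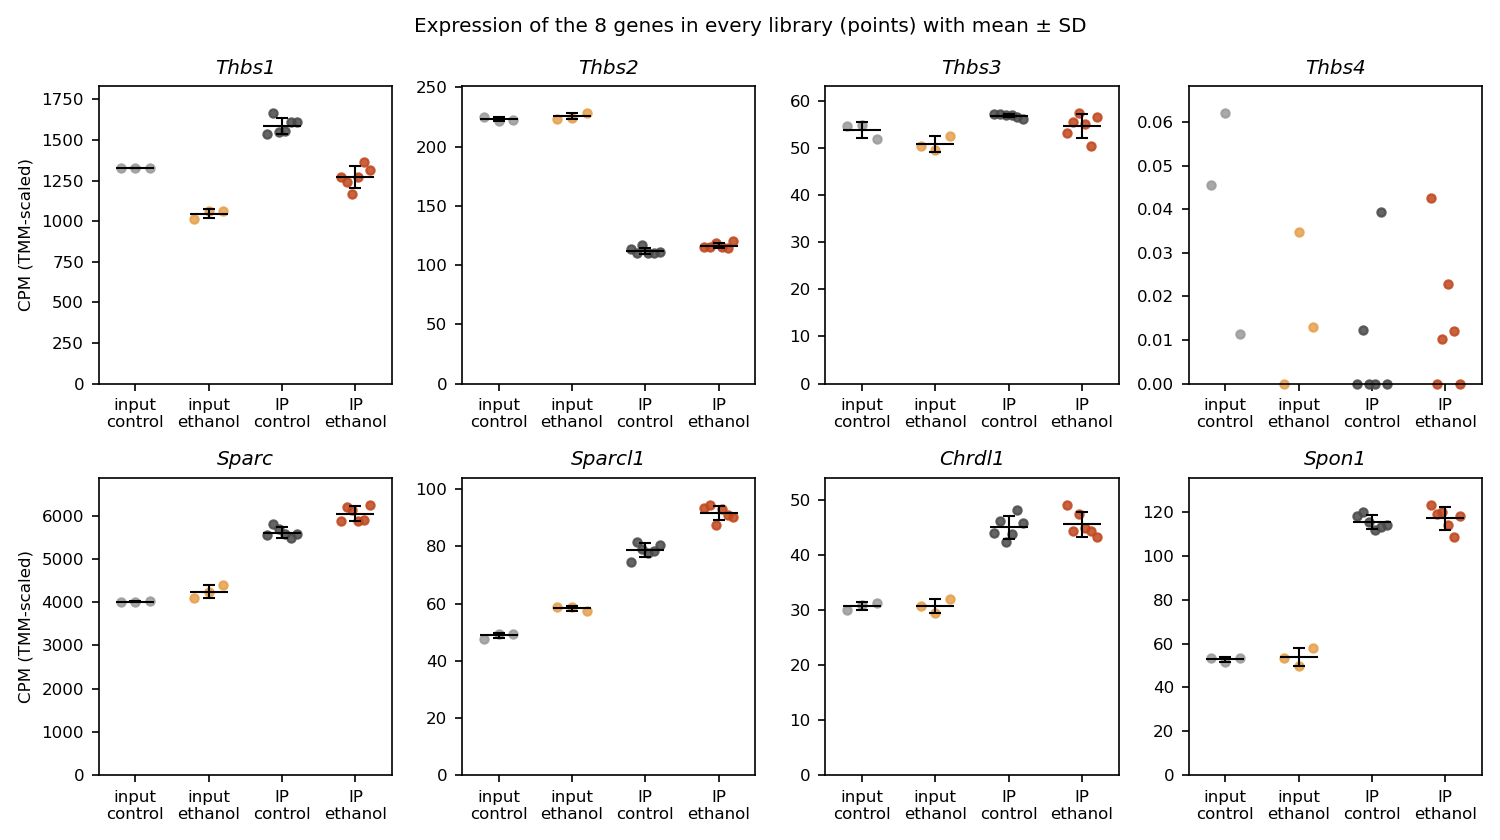
CPM of the 8 genes in every library (points) with the mean and SD of each group (black lines; not drawn for *Thbs4*, which had 0 to 6 read pairs per library). Axes start at 0. *Thbs1* was lower and *Sparc* and *Sparcl1* were higher in each ethanol library than in each control library of the same fraction, and *Thbs2* in IP lay near 114 CPM against 224 in input.

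*Sparcl1*, which encodes the synapse-forming protein hevin, ranged from 74.7 to 81.5 CPM in IP control libraries with a median of 78.6, and from 87.6 to 94.6 CPM in IP ethanol libraries with a median of 92.0. All 6 ethanol libraries were above all 6 control libraries, and the level rose by 17.2% (log2 fold change 0.23, SE 0.03; edgeR's quasi-likelihood test, adjusted p = 4.51e-10). In input it was at 47.7, 49.3 and 49.5 CPM in control and at 58.8, 58.9 and 57.3 CPM in ethanol libraries. The increase was 19.1% (log2 fold change 0.25, SE 0.03; edgeR's quasi-likelihood test, adjusted p = 7.55e-13), again with no overlap.

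*Sparc*, which encodes the matrix protein that opposes hevin, ranged from 5479 to 5817 CPM in IP control libraries with a median of 5573, and from 5872 to 6264 CPM in IP ethanol libraries with a median of 6031. The groups did not overlap, and the level rose by 8.25% (log2 fold change 0.11, SE 0.02; edgeR's quasi-likelihood test, adjusted p = 3.73e-05). In input the control libraries were at 4012, 4013 and 4026 CPM and the ethanol libraries at 4104, 4235 and 4401 CPM. The increase of 5.44% passed the test (log2 fold change 0.08, SE 0.02; edgeR's quasi-likelihood test, adjusted p = 0.00249), but it rested on 1 library, since without input ethanol replicate 6 the log2 fold change was 0.05 and the adjusted p 0.22.

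Because the proteins are counterparts, the read pairs of *Sparcl1* were also set against those of *Sparc* in each library. In IP, *Sparcl1* had 1.34% to 1.45% of the *Sparc* read pairs in control and 1.43% to 1.59% in ethanol libraries, with medians of 1.40% and 1.53%. The ranges overlapped slightly, and the mean log2 ratio was 0.11 higher with ethanol (exact two-sided permutation test, 6 against 6 libraries, p = 0.0108; adjusted over 4 tests, 0.0216). In input the ratio was 1.19% to 1.23% in control and 1.30% to 1.43% in ethanol libraries, a log2 difference of 0.18 (exact permutation p = 0.1, the smallest possible with 3 against 3). *Sparc* RNA thus remained far above *Sparcl1* RNA in every library.

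*Chrdl1*, which encodes the BMP-binding protein chordin-like 1, was at 42.4 to 48.2 CPM in IP control and 43.3 to 49.2 CPM in IP ethanol libraries. In input it was at 30.0, 30.8 and 31.3 CPM in control and 30.8, 29.4 and 31.9 CPM in ethanol libraries. The groups overlapped in both fractions, and the log2 fold change was 0.03 in IP (interval -0.04 to 0.09) and -0.01 in input (interval -0.08 to 0.07). *Spon1*, which encodes spondin 1, was at 112 to 120 CPM in IP control and 109 to 124 CPM in IP ethanol libraries, and at 53.6, 51.5 and 53.5 CPM in input control against 53.3, 50.0 and 58.1 CPM in input ethanol libraries. Its groups overlapped as well, with a log2 fold change of 0.03 in IP (interval -0.02 to 0.08) and 0.02 in input (interval -0.04 to 0.08).

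**Figure D3:**
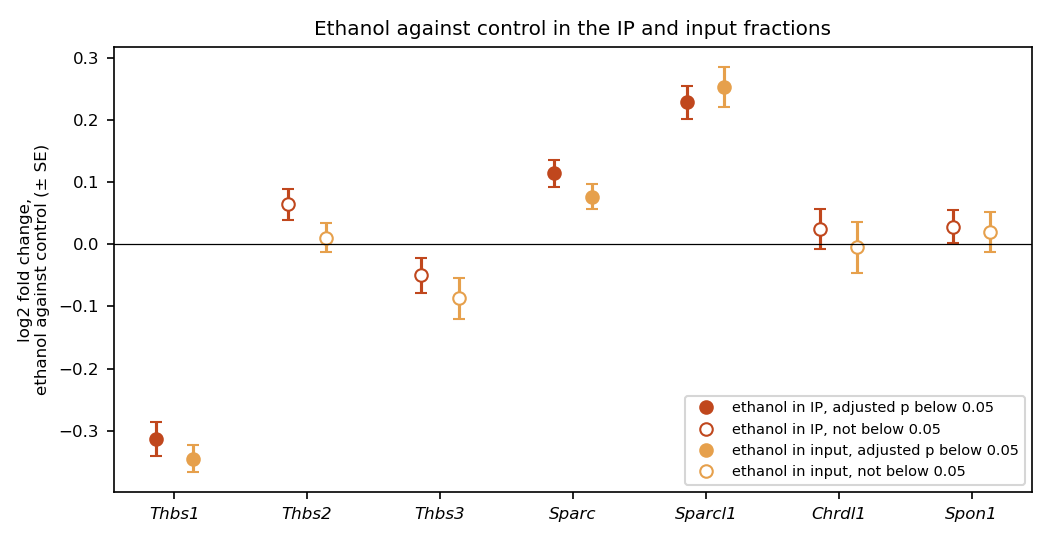
Log2 fold change of ethanol against control (points, ± SE) in the IP (red) and input (orange) fractions for 7 of the genes, filled where the adjusted p was below 0.05. *Thbs1* lay at -0.31 and -0.34, *Sparc* at 0.11 and 0.08 and *Sparcl1* at 0.23 and 0.25, and the other 4 were open in both fractions. *Thbs4* is left out for its low counts.

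The ethanol effect was compared between the fractions as an interaction. None of the 8 genes passed, and 0.00% of all genes tested did (0 of 24495 with edgeR's quasi-likelihood test, 1459 at an unadjusted p under 0.05 and 4 with DESeq2; 102 genes, 0.416%, when the dish was a block over the 12 libraries with a partner, none of them among the 8). The effect in IP minus that in input was 0.02 on the log2 scale for *Thbs1* (interval -0.07 to 0.11), -0.04 for *Sparcl1* (-0.12 to 0.05) and 0.03 for *Sparc* (-0.04 to 0.09).

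With ethanol, marker genes moved too. The summed level of the 9 astrocyte markers was 1733 to 1811 CPM in IP control and 1857 to 1929 CPM in IP ethanol libraries, with 4 of 9 higher and none lower, and 1103 to 1150 against 1155 to 1183 CPM in input, where 4 were higher and 3 were lower (*Aldh1l1* -0.13, *Aldoc* -0.10 and *Gfap* -0.07). The sum of the 6 neuron markers, mostly *Stmn2* (-0.18), was 129 to 138 CPM in IP control and 117 to 124 CPM in IP ethanol libraries, and 3 of the 6 were under 1 CPM. The 6 markers of the oligodendrocyte lineage summed to 24.5 to 27.1 CPM in IP control and 30.0 to 33.1 CPM in IP ethanol libraries, with 2 higher. The 6 microglia markers summed to 7.40 to 8.40 and 7.88 to 10.2 CPM, with 1 higher (*Csf1r*, 0.33). Of the endothelial and mural markers 1 was lower in each fraction (*Kdr*, -0.40 in IP and -0.51 in input). None of the 5 fibroblast markers passed in either fraction. The part of these shifts in the results for *Thbs1*, *Sparc* and *Sparcl1* was not tested.

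Among the receptors and binding partners of the members, 10 of 15 rose and none fell in IP, and 8 rose and none fell in input, where 11.9% and 7.21% of all genes were higher, with a median log2 fold change of 0.14 and 0.08 against 0.01 and 0.00 over all genes. When testing was restricted to genes averaging 1 CPM or more, 2816 of 13278 were higher in IP and 1708 of 13619 in input. The list was written with earlier results of these data known, so its counts are a description. In IP the genes that rose included *Nlgn1*, which encodes the hevin partner neuroligin 1, at 14.5 ± 0.64 CPM in control and 17.2 ± 0.94 in ethanol libraries (SD, n = 6; log2 fold change 0.26; edgeR's quasi-likelihood test, adjusted p = 1.97e-06). *Nlgn1* in input was at -0.01. *App* (0.15 in IP, 0.09 in input) and *Vldlr* (0.15 and 0.11), which encode binding partners of spondin 1, rose in both fractions, as did *Cd47* (0.11 and 0.16), which encodes a thrombospondin receptor. *Lrp8*, an apolipoprotein E receptor gene of the same list, was at 0.02 in both fractions and did not pass. *Cacna2d1*, which encodes the thrombospondin receptor alpha2delta-1, did not pass, with log2 fold changes of -0.05 in IP and -0.03 in input. The RNA of these receptors and partners was measured here in astrocyte cultures, so the values do not describe their level on neurons.

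Of 10 relatives of the members, only *Spock2*, which encodes the SPARC-related proteoglycan testican-2, passed. It rose from 9.95 ± 0.54 to 13.4 ± 0.39 CPM in IP (SD, n = 6; log2 fold change 0.44; edgeR's quasi-likelihood test, adjusted p = 1.2e-11) and from 8.55 ± 0.47 to 10.7 ± 0.57 CPM in input (SD, n = 3; 0.32). Of 17 BMP pathway genes tested, 4 rose and 1 fell in IP, and 5 rose and 3 fell in input, with medians of 0.01 and -0.02, beside 21.4% of all genes called in IP and 15.0% in input. The BMP target *Id2* rose (0.19 in IP, 0.26 in input), as did *Id3* (0.13 and 0.15) and the receptor gene *Bmpr1a* (0.17 and 0.18), and *Bambi*, which encodes a pseudoreceptor that dampens BMP and TGF-beta signals, fell (-0.17 in both). In input the ligand gene *Bmp4* fell as well (-0.18), while in IP it was at -0.07 and did not pass.

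Other factors by which astrocytes act on synapses moved in both directions, 4 up and 1 down of 14 in IP and 4 up and 3 down in input, with medians of 0.01 and 0.02, beside the same 21.4% and 15.0% of all genes. *Ncan*, which encodes the perineuronal net proteoglycan neurocan, rose most (0.33 in IP, 0.31 in input), followed in IP by *Tgfb1* (0.18). *Bdnf*, which encodes a neurotrophin, fell in IP (-0.14) and was at -0.04 in input, and *Il33*, which encodes a cytokine that promotes synapse engulfment, fell in input (-0.13) and was at 0.00 in IP. In IP vs. input, 8 of the 14 were higher and 5 lower, beside 25.2% and 25.8% of all genes. *Il33* was at -1.80 and *Tgfb1* at -1.19, while *Ncan* was at 0.96. Which cells of the cultures these RNAs came from was not tested.

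*Thbs1* is a known target of TGF-beta, of YAP and of serum response factor (SRF). Of 12 other genes known to be induced by these, 9 fell and 1 rose in IP, and 8 fell and 1 rose in input, where 9.48% and 7.78% of all genes were lower. This list was written with earlier results of these data known, so its counts are a description, and a shared cause was not tested. The median log2 fold change of the list was -0.30 and -0.24, against 0.01 and 0.00 over all genes. Among those with at least 5 CPM in IP, the largest decreases were in genes for proteins of contractile and actin filaments, namely *Cnn1* (-0.70 in IP, -0.73 in input), *Acta2* (-0.56 and -0.59), *Tagln* (-0.51 and -0.52), *Myl9* (-0.48 and -0.47) and *Tpm1* (-0.38 and -0.34). *Acta2*, which encodes smooth muscle actin, went from 1589 ± 56.9 to 1069 ± 69.3 CPM in IP (SD, n = 6; edgeR's quasi-likelihood test, adjusted p = 7.24e-08). *Ctgf*, a matricellular gene and YAP target, rose (0.18 and 0.16), and *Cyr61* (-0.11) and *Lats2* (-0.03) did not pass in IP. Mural cells and fibroblasts express several of these contractile genes too. In IP vs. input, *Cnn1* was at 0.73, *Myl9* at 0.51, *Acta2* at 0.43, *Tagln* at 0.35 and *Tpm1* at 0.19. Of the 12 genes, 10 were higher in IP and 2 lower, beside 25.2% and 25.8% of all genes. Of 6 endothelial and mural markers tested, 2 were higher and 2 lower, and of 5 fibroblast markers 1 was higher and 4 lower. With ethanol, the mural and endothelial marker *Kdr* fell (-0.40 in IP, -0.51 in input), while *Rgs5* (-0.21 and -0.06) and *Pdgfrb* (-0.02 in both) did not pass. The part of these cells in the fall of the contractile genes was not tested.

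**Figure D4:**
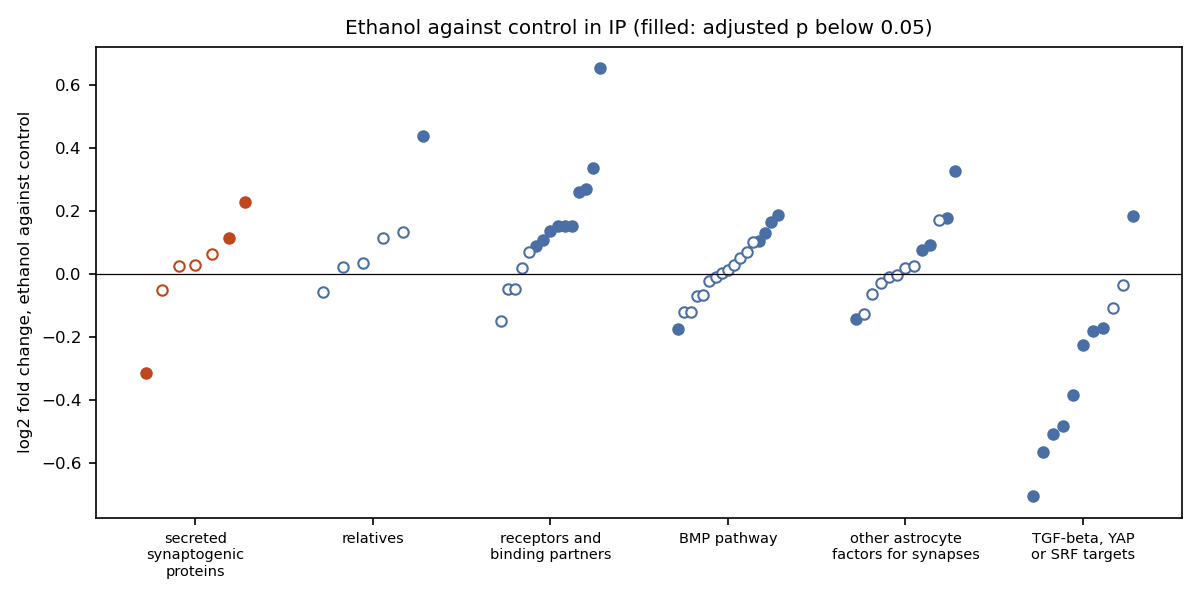
Log2 fold change of ethanol against control in IP for the genes of each list with a mean of at least 1 CPM in the IP libraries, in rank order within a list, filled where the adjusted p was below 0.05. The secreted synaptogenic proteins (red) ranged from -0.31 to 0.23, the receptors and binding partners lay mostly above 0, and 9 of 12 TGF-beta, YAP or SRF targets fell, of which 1 is under 1 CPM and not drawn.

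Comparing IP with input, *Spon1*, *Sparcl1*, *Chrdl1*, *Sparc*, *Thbs1* and *Thbs3* were higher in IP and *Thbs2* was lower. Thus 7 of the 8 genes passed, 6 higher and 1 lower, where 51.0% of all genes did (25.2% higher and 25.8% lower). When testing was restricted to genes averaging 1 CPM or more, 10404 of 13453 passed (5183 higher, 5221 lower). That share is larger than the one over all genes, so the count of 7 is not read as an excess. Of the 8 members, 5 had no overlap between the 12 IP and 6 input libraries, against 25.0% of all genes. The median log2 fold change of the 8 genes was 0.38, against -0.03 over all genes tested. *Spon1* was at 117 ± 4.24 CPM in IP (SD, n = 12) and 53.4 ± 2.71 in input (SD, n = 6), a difference of 1.13 on the log2 scale (SE 0.03; edgeR's quasi-likelihood test, adjusted p = 1.84e-42). This was close to the value of *Aldh1l1* (1.05), the gene whose promoter drives the tag.

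*Sparcl1* had a log2 fold change of 0.67 (SE 0.02), *Chrdl1* of 0.56 (SE 0.03) and *Sparc* of 0.50 (SE 0.02), with adjusted p of 3.48e-39, 4.94e-29 and 3.51e-37 (edgeR's quasi-likelihood test). These values lay within the range of the 8 astrocyte markers that were higher in IP, 0.30 to 1.05, while *S100b* was at -0.49. Such values were not particular to astrocyte markers. Of 6 neuron markers, 3 were higher in IP (*Tubb3* 0.53) and 1 was lower. Of 6 markers of the oligodendrocyte lineage, 2 were higher (*Cspg4* 1.07) and 3 were lower. *Thbs1* was at 1430 ± 174 CPM in IP (SD, n = 12) and 1186 ± 153.8 in input (SD, n = 6), and the libraries of the fractions overlapped (log2 fold change 0.27, SE 0.02; edgeR's quasi-likelihood test, adjusted p = 2.91e-15). These ranges and SDs pool control and ethanol libraries. Within each treatment the fractions did not overlap. In control, *Thbs1* was at 1537 to 1665 CPM in IP and 1325 to 1326 in input. In ethanol it was at 1168 to 1367 CPM in IP and 1015 to 1063 in input. *Thbs3* was slightly higher in IP (0.09, SE 0.02; edgeR's quasi-likelihood test, adjusted p = 0.000649), and with libraries scaled by their total counts the value was 0.04 with an adjusted p of 0.14. *Thbs4* had 13 read pairs in IP and 15 in input and was not called.

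*Thbs2* was the exception, at 114 ± 3.37 CPM in IP (SD, n = 12) and 224 ± 2.38 in input (SD, n = 6), with no overlap. Its log2 fold change was -0.97 (SE 0.02; edgeR's quasi-likelihood test, adjusted p = 1.97e-54). Among the fibroblast markers, 4 of 5 were lower and 1 was higher in IP, with a log2 fold change of -1.62 for *Col1a1*, -1.87 for *Dcn* and 0.28 for *Col1a2*, and their summed level was 99.9 to 118 CPM in IP against 216 to 222 in input. The microglia markers were lower in 5 of 6 (*Csf1r* -2.56), and summed to 7.40 to 10.2 CPM in IP against 44.9 to 55.2 in input. The endothelial and mural markers summed to 96.7 to 106 CPM in IP and 138 to 144.6 CPM in input, nearly all of it *Pdgfrb* (-0.54). In this list *Kdr* (0.69) and *Rgs5* (0.30) were higher in IP and *Cdh5* (-1.87) was lower, while *Cldn5* was at 0 in every library and *Pecam1* and *Cdh5* were under 1 CPM but above 0 in all 18. The part of these cells in the result for *Thbs2* was not tested. Among the relatives, *Spon2*, a paralog of *Spon1*, was also lower in IP (-1.62), unlike *Spon1*.

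**Figure D5:**
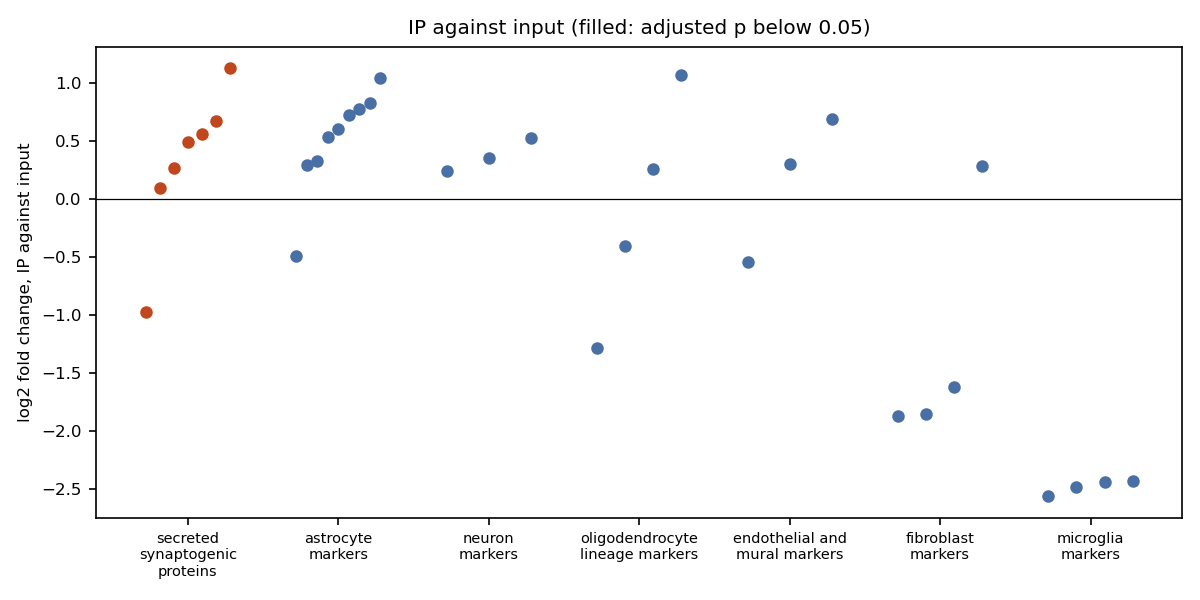
Log2 fold change of IP against input for the secreted synaptogenic proteins (red) and for marker genes of 6 cell types (blue) with a mean of at least 1 CPM, in rank order within a list; all points shown passed at an adjusted p below 0.05. *Thbs2* (-0.97) lay below 0 with most fibroblast and microglia markers, and the other 6 members lay between 0.09 and 1.13.

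For each member with at least 5 CPM, the 3 genes with the most similar pattern over the 12 IP libraries were found among 10974 genes by Pearson's r of log2 CPM. The libraries share the ethanol contrast, so these values are a description. *Thbs1* was most like *Dnmt1* (r = 0.98), *Cald1* (0.98) and *Cobl* (0.98), which had log2 fold changes with ethanol of -0.23, -0.19 and -0.41 in IP. *Sparcl1* was like *Antxr1* (0.98) and *Grid1* (0.98), and *Sparc* was most like *Agap3* (0.96), *Eef1a2* (0.96) and *Zfp212* (0.95), which rose with ethanol. The members that did not pass had lower values, with *Mgmt* (0.95) for *Thbs3*, *Rtn4rl1* (0.92) for *Thbs2*, *Cyb5d1* (0.91) for *Chrdl1* and *Pik3r5* (0.88) for *Spon1*.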

How the data were processed

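RNA was sequenced from 12 IP and 6 input libraries. Trimming by the authors used Trimmomatic, alignment was to GRCm38 by STAR, and the deposited values are raw counts of read pairs per gene, not normalized or pooled; tool versions were not given in the sources used here. The deposited table of all libraries was used, and it had 0 differences from the single-library files, strand ignored. Pairs mapped to several places (3.60% on average) were not counted and pairs on overlapping genes (5.50%) were set aside.

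From these counts, CPM was computed with TMM, and the 24495 genes that had 10 or more pairs in total entered edgeR 4.0.16 (glmQLFit, robust, and glmQLFTest; R 4.3.3), with Benjamini-Hochberg adjustment over all genes and a threshold of 0.05. Ethanol was tested within each fraction, IP vs. input and the interaction over 18 libraries. The SE is the log2 fold change over the square root of F, and intervals are 95% normal. DESeq2 1.42.0 was run beside it. Levels per length used merged exons. The single ratio and sum were tested by exact permutation.

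The members and gene lists, written from general knowledge, were chosen with earlier results of these data known. From each list, at most 4 genes a comparison were named, those with the largest change among genes with an adjusted p below 0.05 and at least 5 CPM. *S100b*, *Cacna2d1*, *Lrp8*, *Ctgf*, *Cyr61*, *Lats2*, *Cldn5*, *Kdr*, *Rgs5*, *Cdh5*, *Pecam1*, *Aldoc*, *Gfap* and values of named genes in a second comparison were chosen after the values were seen. Some genes that these rules name are not reported here.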

Additional observations from a re-analysis of the deposited data

Results flagged for a closer look

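A single value among the 20 groups of 6 libraries examined stood far from the rest of its group, and chance alone gives about 1 in 20. *Thbs4* in IP control replicate 5 was at 0.0394 CPM, against 0.0123 CPM in the next library and 0 in the other 4. This is 3 read pairs against 1 and 0, the number that a count of 0 still allows.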

How the results depend on the processing

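The calls for *Thbs1*, *Sparc* and *Sparcl1* with ethanol in IP, and for *Thbs1* and *Sparcl1* in input, kept their direction and their side of the threshold under DESeq2, both other scalings, both filters, the annotated strand, the GC and length correction and each library left out. Against a fold change of 1.2 the number of members passing with ethanol was 0 in IP and 1 (*Thbs1*) in input, and *Thbs1* and *Thbs3* no longer passed in IP vs. input, since these differences are small. Leaving out each library gave 3 to 4 members with ethanol in IP, 3 to 4 in input, 7 in IP vs. input and 0 in the interaction. *Thbs3* passed with the GC and length correction in IP (adjusted p = 0.0362) and in input (0.0483), and in input with a mean of at least 1 CPM (0.047). Per length of the longest transcript, 2 places of the order of members changed in IP control and 2 in IP ethanol. Whether equal numbers of control and ethanol dishes mark a shared batch is not known, and not every pair deviated together, with correlations of same-numbered deviations of -0.15 to 0.40 in IP and 0.04 to 0.07 in input. With this replicate block, 4 members passed in IP (*Thbs2*, adjusted p = 0.0437) and 4 in input (*Thbs3*, 0.0398), and the calls over all genes went from 5233 to 5782 and from 3672 to 3829. The dish as a block changed no call of the 8 in IP vs. input or the interaction.

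Members that had not passed changed sign as follows (log2 values). With ethanol in IP, *Spon1* was at -0.0058 with the GC and length correction, at -0.0065 when the replicate block was added, and *Chrdl1* was at -0.056 in replicates 4 to 6 alone. In input, *Chrdl1* was at 0.0036 with total counts, and leaving out a library gave -0.038 to 0.027 for *Chrdl1*, -0.0023 to 0.020 for *Thbs2* and -0.042 to 0.071 for *Spon1*. In the interaction, *Spon1* was at 0.0026 with DESeq2 size factors, 0.0025 with DESeq2, 0.0048 with the dish as a replicate block and 0.0034 in the same 12 libraries without it, a setting added after the data were seen. *Chrdl1* was at -0.035 with and without this block and at -0.0065 with the block and the GC and length correction, where *Sparcl1* was at 0.0061. Leaving out a library gave -0.057 to 0.055 for *Spon1*, -0.015 to 0.048 for *Chrdl1*, -0.0073 to 0.044 for *Thbs1* and -0.0038 to 0.053 for *Sparc*. The causes of these shifts were not tested.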
